A study of Homo sapiens with 22 samples.

Results

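RNA polymerase I transcribes the ribosomal DNA repeats in the nucleolus into the precursor from which the large ribosomal RNAs are cut. The enzyme is recruited to the ribosomal DNA promoter by UBTF and by selectivity factor 1, a complex of TBP with TAF1 proteins, and it can start only when RRN3 is bound to it. The output of this machinery is a main limit on how many ribosomes a cell can make, and it is often raised in leukemia. Here the mRNA levels of 10 genes of this machinery were followed in acute myeloid leukemia (AML) cells treated with FP54, a bifunctional degrader that brings FTO, the m6A demethylase, to a ubiquitin ligase. The 10 genes, POLR1A, POLR1B, POLR1C, POLR1E, POLR1F, POLR1G, RRN3, UBTF, TAF1D and TCOF1, were taken by symbol from tables of 20411 genes, and all 10 were found and tested in both cell lines.

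The data were RNA-seq of poly(A) RNA from MOLM-13 cells, an AML line that carries an MLL fusion, and from NB4 cells, an acute promyelocytic leukemia line that carries a PML-RARA fusion. Both lines were labelled wild type, no allele was changed, and each line stands for a single patient's leukemia. Cells received 2 μM FP54 or the vehicle DMSO for 48 h, with 3 libraries for each treatment and cell line. The labels do not say whether replicates were separate cultures, so the tests measure the spread between libraries only.

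POLR1A and POLR1B encode the catalytic subunits. POLR1A, at chr2:86020216-86106155 (hg38), and POLR1B, at chr2:112541915-112579818, encode the chains that together form the active site. POLR1C, at chr6:43509702-43562419, encodes an assembly subunit that RNA polymerase III also uses. POLR1E, at chr9:37485948-37503697, and POLR1G, at chr19:45406644-45410737, encode partners in the subcomplex that is particular to RNA polymerase I, and POLR1F, at chr7:19695461-19709037, encodes the stalk subunit that RRN3 contacts. RRN3 lies at chr16:15060033-15094311, UBTF at chr17:44205033-44221626 and TAF1D, a subunit of selectivity factor 1, at chr11:93729948-93784391. TCOF1, at chr5:150357629-150400308, encodes treacle, a nucleolar phosphoprotein that binds UBTF and RNA polymerase I. POLR1C, POLR1G, RRN3 and TAF1D overlap protein-coding genes on the opposite strand (for example YIPF3, ERCC1, PDXDC1 and MED17), and RRN3 has closely related pseudogene copies. How the counting treated strand is not given in the sources used here, so reads of these 4 genes and of their neighbours could not be fully told apart.

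Promoters of 8 of the 10 genes were in the RefSeq promoter set (GRCh38.p14, 250 bases before to 50 bases after the start), and POLR1E and TCOF1 were not. The letters CACGTG, the E box that MYC and other factors bind, and CCGGAAG, the core bound by ETS family factors, were searched on both strands. The 8 genes have 11 promoters in the set, since some have several starts. CACGTG was in 1 of these 11 promoters, against 7.26% of all 35116, and CCGGAAG was in 6 of the 11, of 4 genes, against 10.3%. The overlapping promoters of RRN3 hold the same site and were each counted, and no share by gene was computed for the whole set. The matches do not show binding. The windows of 30 bases below are 5′ to 3′ on the gene's strand with the match in capitals. They are shown because POLR1B and POLR1G were called lower with FP54 in at least 1 line. POLR1C, TAF1D and RRN3, which have a CCGGAAG match as POLR1B does, were called in neither. POLR1A, called lower in MOLM-13 cells, and POLR1F, called lower in NB4 cells, were in the set without a match. UBTF, called in neither line, had no match either. Further matches in POLR1B and POLR1C are not shown.
POLR1G (chr19:45406620-45406649, plus strand): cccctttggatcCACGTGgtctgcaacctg
POLR1B (chr2:112541898-112541927, plus strand): caggcctccagtCCGGAAGatgcgacgagg
POLR1C (chr6:43516953-43516982, plus strand): caaaagcaaCTTCCGGAAGctggggacgtg
TAF1D (chr11:93741543-93741572, minus strand): ctcgccttcttcCCGGAAGctaagttgtat
RRN3 (chr16:15094292-15094321, minus strand): tggcacgcgcaaCTTCCGGgacagaggctg
The match began 12 bases before the start in POLR1G, 126 bases before it in POLR1B, 124 bases before it in POLR1C and 65 bases before it in TAF1D. In POLR1C the forward and reverse forms overlap, which gives the longer run in capitals, and RRN3 has the reverse form, CTTCCGG, 26 bases after 1 of its starts in the set and 37 bases before another. The starts used for POLR1B, POLR1C and TAF1D lie inside the spans given above for these genes, as does 1 RRN3 start.

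The deposited values are RPKM, reads scaled to the depth of the library and to a length for each gene. With the summed length of all annotated exons as that length, the values gave back nearly whole reads. It was 19694 bases for POLR1A and 2499 bases for POLR1E. This length can exceed that of the transcripts present, by an amount that was not measured. Levels of different genes within a library can therefore be set side by side only roughly. Reads on genes ranged from 5829730 to 19191054 in the MOLM-13 libraries, the lowest in FP54 replicate 2, and from 10595647 to 22344265 in the NB4 libraries, where all FP54 libraries were below all DMSO libraries. The values of the 10 genes rested on 78 to 8721 reads. All 13 myeloid markers examined had a value above 0 in each line. A mean of 1 RPKM with either treatment was reached by 13 of them in MOLM-13 and 11 in NB4 cells. Of 11 markers of other lineages, 9 in MOLM-13 and 11 in NB4 cells had a value above 0. A mean of 1 RPKM was reached by 2 of these in MOLM-13 and 5 in NB4 cells, with HBB at 0 in every MOLM-13 library. The other-lineage markers summed to 34.8 to 37.1 RPKM with DMSO and 46.5 to 50.3 RPKM with FP54 in MOLM-13 cells, and to 28.6 to 30.9 RPKM and 37.8 to 40.0 RPKM in NB4 cells. The myeloid markers summed to 1477 to 1881 RPKM with DMSO and 1489 to 2197 RPKM with FP54 in MOLM-13 cells, and to 2294 to 2573 RPKM and 1274 to 1347 RPKM in NB4 cells. A single gene carried most of the MOLM-13 other-lineage sum and of the NB4 myeloid sum. PECAM1, which myeloid cells also express, was at a mean of 27.1 and 41.8 RPKM in MOLM-13 cells, where KRT18 was lower. MPO was at 2170 and 1116 RPKM in NB4 cells, where ITGAM rose to 394% of its DMSO mean. By the calling rule given below, 4 of the 11 myeloid markers tested in NB4 cells were lower (MPO, PRTN3, CEBPE and AZU1). ITGAM was the 1 called higher. In MOLM-13 cells 1 of the 12 tested was called lower, MPO at 23.5% of its DMSO mean. CSF1R (173%) and ITGAM (159%) were the 2 called higher there. The NB4 other-lineage sum was spread over KRT18 (11.5 and 11.7 RPKM), EPCAM (8.15 and 9.71), CD3D (6.35 and 10.3), PECAM1 (2.11 and 5.23) and CD79A (1.12 and 1.17). Of these, CD3D and PECAM1 were called higher. The part of these shifts in the results that follow was not tested, and in bulk RNA a smaller share of expressing cells and less RNA per cell cannot be told apart.

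The genes differed widely in level. In DMSO-treated MOLM-13 cells, TAF1D had the highest RPKM of the 10, at a mean of 43.6. Its libraries did not overlap those of POLR1E, next in order at 24.9 RPKM. Below them came UBTF at 22.5 RPKM, POLR1G at 11.8 RPKM, TCOF1 at 9.91 RPKM, POLR1F at 7.48 RPKM, RRN3 at 5.34 RPKM, POLR1C at 5.26 RPKM, POLR1B at 3.94 RPKM and POLR1A at 2.95 RPKM. From POLR1E down, each gene overlapped the next in its range over the 3 libraries. In DMSO-treated NB4 cells, UBTF led at 51.7 RPKM, followed by TAF1D at 38.7 RPKM, TCOF1 at 32.9 RPKM and POLR1F at 26.001 RPKM, and these 4 did not overlap their neighbours. POLR1E at 16.5 RPKM, POLR1G at 16.3 RPKM and POLR1B at 14.8 RPKM overlapped in that order, as did RRN3 at 10.8 RPKM, POLR1A at 9.85 RPKM and POLR1C at 8.54 RPKM. POLR1A, the mRNA of the largest subunit, thus had among the lowest RPKM of the 10 in both lines. Its exon length was the longest of the 10, so this order need not be that of mRNA copies. The tables were normalized separately, so levels in the lines can only be set side by side: the NB4 mean was 334% of the MOLM-13 mean for POLR1A, 376% for POLR1B, 348% for POLR1F and 332% for TCOF1, and 66.1% for POLR1E.

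In MOLM-13 cells, the catalytic subunit mRNAs POLR1A and POLR1B and the treacle mRNA TCOF1 fell with FP54, to 32.6%, 41.7% and 28.9% of the DMSO mean. The other 7 genes were not called, and no gene was called higher. All 10 fitted log2 fold changes were below 0, with a median of -0.52 against 0.0033 over all 9710 genes tested. Calls needed an unadjusted p below 0.01 and a change of at least 0.5 on the log2 scale, both from limma on log2(RPKM + 0.1), which understates changes of low genes. By that rule 9.04% of all tested genes were called lower and 9.3% higher. The 3 called genes also had an adjusted p (Benjamini-Hochberg, over all genes) below 0.05, as did 9.32% of all genes in the lower direction. An unadjusted p below 0.05 was reached by 6 of the 10, all lower, against 17.4% of all genes. The smallest p that an exact permutation test can reach with 3 libraries a side is 0.1, so no single gene could pass one.

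TCOF1 was at 10.1, 6.13 and 13.5 RPKM in DMSO replicates 1 to 3 and at 1.603, 3.87 and 3.13 RPKM in FP54 replicates 1 to 3. Every FP54 library was below every DMSO library. The means were 9.91 ± 3.69 RPKM and 2.87 ± 1.15 RPKM (SD, n = 3 each), and the log2 fold change was -1.77 (standard error, SE, 0.34, limma adjusted p = 0.00867). POLR1A was at 4.12, 1.39 and 3.32 RPKM with DMSO and at 0.503, 0.976 and 1.40 RPKM with FP54. DMSO replicate 2 and FP54 replicate 3 had nearly the same level, so the groups touched. The log2 fold change of POLR1A was -1.49 (SE 0.41, adjusted p = 0.0326). POLR1B, its partner in the active site, was at 5.23, 2.11 and 4.48 RPKM with DMSO and at 1.08, 1.49 and 2.37 RPKM with FP54. Again DMSO replicate 2 lay below FP54 replicate 3, and the log2 fold change was -1.18 (SE 0.35, adjusted p = 0.0415).

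**Figure D1:**
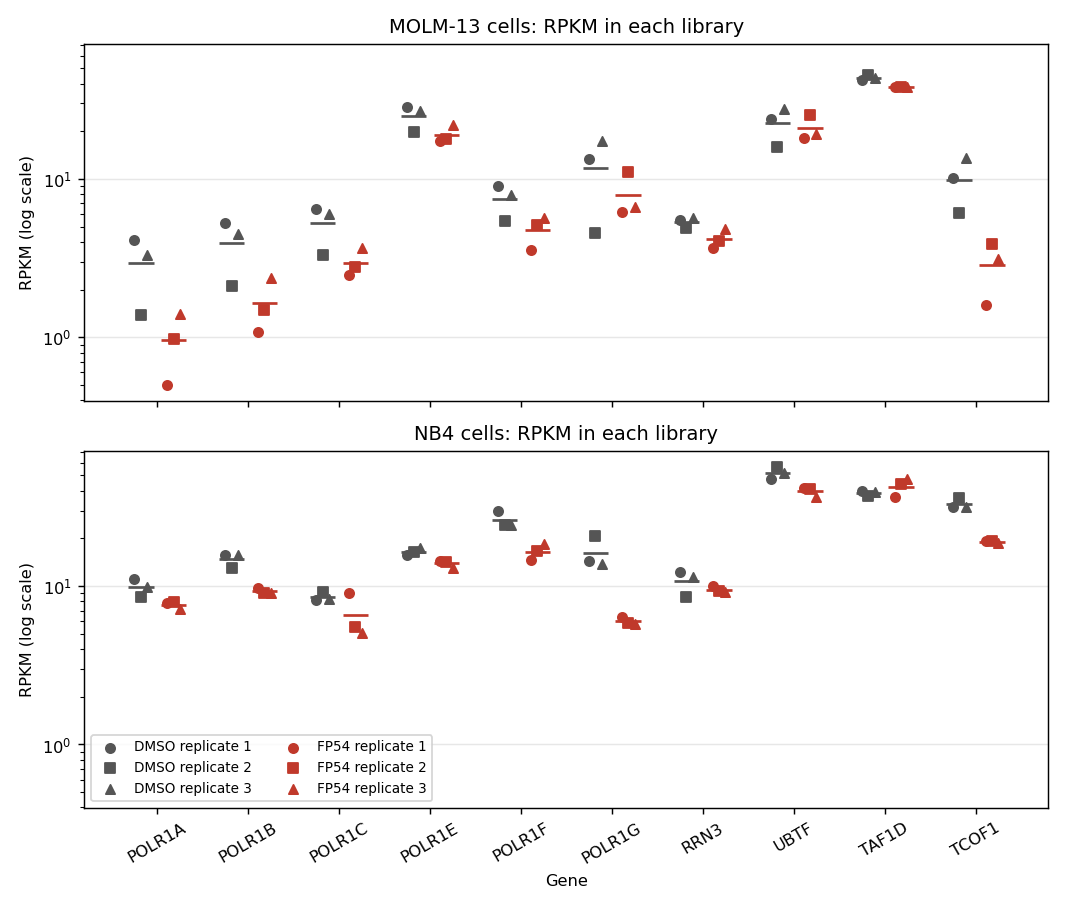
RPKM of the 10 RNA polymerase I machinery genes in each of the 6 MOLM-13 libraries (top) and the 6 NB4 libraries (bottom), on a log axis, with DMSO in grey, FP54 in red, a marker shape for each replicate and a bar at the mean of 3. In MOLM-13 cells TCOF1 separates fully, from 6.13 RPKM and above to 3.87 RPKM and below, while DMSO replicate 2 (grey square) sits near the FP54 libraries for POLR1A, POLR1B and POLR1C.

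The remaining polymerase subunits were lower in the mean but did not pass the rule. POLR1C was at 6.46, 3.29 and 6.04 RPKM with DMSO and 2.46, 2.77 and 3.64 RPKM with FP54, and only DMSO replicate 2 overlapped the FP54 range (log2 fold change -0.77, SE 0.26, adjusted p = 0.0623). POLR1F was at 9.08, 5.39 and 7.97 RPKM with DMSO and 3.54, 5.13 and 5.71 RPKM with FP54, with the same library overlapping (log2 fold change -0.63, adjusted p = 0.0849). POLR1E, at 28.4, 19.8 and 26.7 RPKM with DMSO and 17.3, 17.9 and 21.8 RPKM with FP54, had a log2 fold change of -0.38 (adjusted p = 0.141). Its partner POLR1G varied most among the DMSO libraries of the subunits, at 13.4, 4.55 and 17.4 RPKM, and was at 6.16, 11.1 and 6.66 RPKM with FP54. The DMSO range of POLR1G enclosed the whole FP54 range, and the log2 fold change of -0.41 had a 95% confidence interval from -1.34 to 0.53.

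No initiation factor was called. RRN3, at 5.51, 4.88 and 5.64 RPKM with DMSO and 3.64, 4.06 and 4.84 RPKM with FP54, had all FP54 libraries below all DMSO libraries, by a narrow margin (log2 fold change -0.35, SE 0.16, adjusted p = 0.156). TAF1D was at 41.9, 45.1 and 43.7 RPKM with DMSO and at 38.0, 38.2 and 38.3 RPKM with FP54. These groups did not overlap, the FP54 mean was 87.6% of the DMSO mean, and the log2 fold change of -0.19 had a 95% confidence interval from -0.46 to 0.079. UBTF, which wraps the ribosomal DNA promoter, was at 24.0, 15.9 and 27.6 RPKM with DMSO and 18.1, 25.4 and 19.1 RPKM with FP54. The groups overlapped, and the log2 fold change of UBTF was -0.085 (95% confidence interval -0.56 to 0.39). It was 0.080 without DMSO replicate 3 and 0.0086 without FP54 replicate 1. In all, 3 of the 10 genes (TCOF1, RRN3 and TAF1D) had every FP54 value below every DMSO value, against 17% of all tested genes, and none had every FP54 value above, against 20.2%.

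The MOLM-13 libraries of a group were not alike for these genes. DMSO replicate 2 had the lowest DMSO value for 9 of the 10 genes, all but TAF1D, where 47.2% of all tested genes had their lowest DMSO value in that library. FP54 replicate 1 had the lowest FP54 value for 10 of 10, against 28.1% of all genes. MYC mRNA, which encodes an activator of ribosomal DNA transcription, was at 56.5, 13.8 and 40.2 RPKM with DMSO and at 5.91, 11.8 and 18.8 RPKM with FP54, and so had its lowest value of each group in the same libraries. The part of these library differences in the result was not tested. Without DMSO replicate 2, 7 of the 10 genes were called lower, POLR1C, POLR1E, POLR1F and POLR1G in addition to the 3. Without DMSO replicate 1, DMSO replicate 3, FP54 replicate 1 or FP54 replicate 2, only 1 was called in each case, TCOF1, and without FP54 replicate 3 there were 4. The calls of POLR1A and POLR1B thus rested on each of those 4 libraries, although their log2 fold changes stayed at or below -0.93 whichever library was left out, while that of TCOF1 stayed between -2.08 and -1.41. With no filter on low values none of the 10 genes was called in MOLM-13 cells, TCOF1 included.

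**Figure D2:**
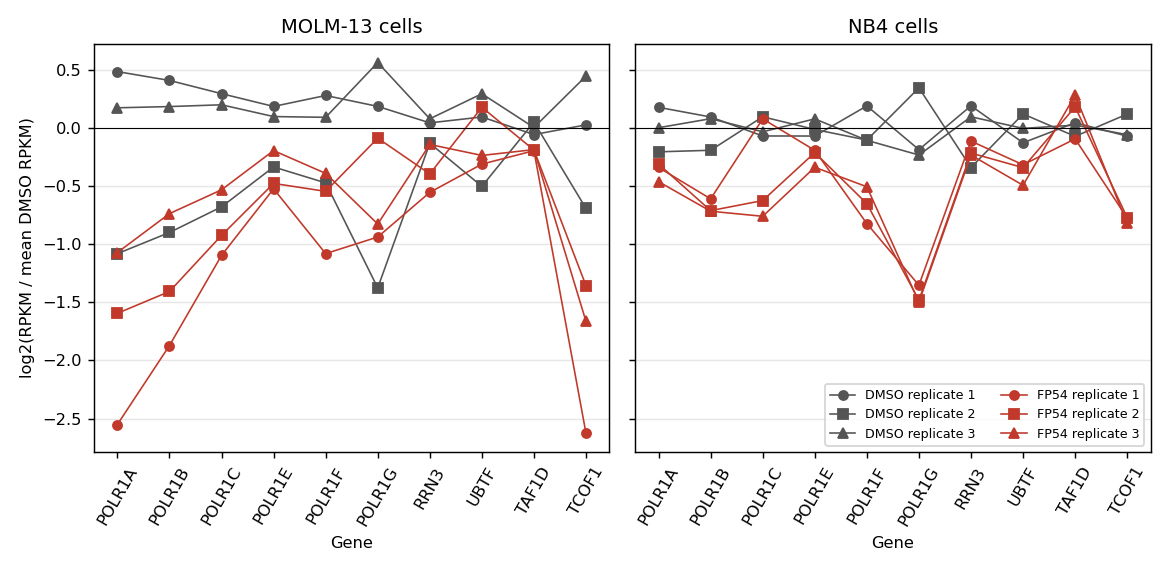
Log2 ratio of each library's RPKM to the DMSO mean of the same gene, for the 10 genes along the x axis, in MOLM-13 cells (left) and NB4 cells (right), with DMSO in grey and FP54 in red and a line for each library. The MOLM-13 line of DMSO replicate 2 runs below the other DMSO lines for 9 of 10 genes and that of FP54 replicate 1 below the other FP54 lines for 10 of 10, while in NB4 cells FP54 replicate 1 stands apart from the other FP54 libraries for POLR1C, at 9.02 RPKM against 5.54 and 5.04 RPKM.

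In NB4 cells, POLR1G fell furthest with FP54, to 36.8% of the DMSO mean, and TCOF1, POLR1B and POLR1F fell to 57.9%, 62.5% and 63.6%. The other 6 genes were not called and none was called higher. At this rule 10.7% of the 9853 genes tested were called lower and 18.6% higher. The median log2 fold change of the 10 genes was -0.40, against 0.070 over all genes tested, and 9 of the 10 were below 0. Replicates were tighter here, with a median coefficient of variation over the 10 genes of 9.69% with DMSO and 5.53% with FP54, compared with 29.7% and 22.0% in MOLM-13 cells. By the adjusted p alone 7 of the 10 were lower, against 22% of all genes, since POLR1A, POLR1E and UBTF passed it with changes smaller than the fold cutoff, and 8 were lower at an unadjusted p below 0.05, against 24.7%.

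POLR1G was at 14.3, 20.7 and 13.9 RPKM in the DMSO libraries and at 6.38, 5.83 and 5.77 RPKM in the FP54 libraries. The groups were far apart, with means of 16.3 ± 3.82 RPKM and 5.99 ± 0.335 RPKM (SD, n = 3 each) and a log2 fold change of -1.40 (SE 0.14, adjusted p = 2.69e-05). In the order of levels POLR1G went from the sixth of the 10 genes with DMSO to the last with FP54. TCOF1 was at 31.4, 35.8 and 31.7 RPKM with DMSO and at 19.2, 19.3 and 18.6 RPKM with FP54, again without overlap (log2 fold change -0.78, SE 0.084, adjusted p = 3.75e-05). POLR1B was at 15.8, 13.0 and 15.6 RPKM with DMSO and at 9.70, 9.04 and 9.01 RPKM with FP54 (log2 fold change -0.67, SE 0.10, adjusted p = 0.000356). The stalk subunit POLR1F was at 29.7, 24.2 and 24.2 RPKM with DMSO and at 14.7, 16.6 and 18.3 RPKM with FP54 (log2 fold change -0.65, SE 0.11, adjusted p = 0.000804). For POLR1B and POLR1F, too, every FP54 library lay below every DMSO library. These 4 genes were called whichever library was left out, and POLR1C joined them without FP54 replicate 1, which gave 5.

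The other 6 genes stayed under the fold cutoff. Among the subunits, POLR1A was at 11.1, 8.54 and 9.86 RPKM with DMSO and 7.78, 7.94 and 7.15 RPKM with FP54 (log2 fold change -0.36, adjusted p = 0.0206), without overlap. POLR1E, at 15.7, 16.3 and 17.4 RPKM with DMSO and 14.4, 14.2 and 13.0 RPKM with FP54, did not overlap either (log2 fold change -0.24, adjusted p = 0.0371). POLR1C was at 8.14, 9.13 and 8.35 RPKM with DMSO and 9.02, 5.54 and 5.04 RPKM with FP54. Only FP54 replicate 1 of POLR1C was at the DMSO level, and the log2 fold change of -0.43 had an adjusted p of 0.0730. Of the initiation factors, UBTF separated, at 47.3, 56.2 and 51.6 RPKM with DMSO and 41.5, 40.8 and 36.7 RPKM with FP54 (log2 fold change -0.38, SE 0.091, adjusted p = 0.00564). RRN3, at 12.3, 8.49 and 11.5 RPKM with DMSO and 9.94, 9.26 and 9.15 RPKM with FP54, overlapped because of DMSO replicate 2 (log2 fold change -0.17, adjusted p = 0.307). TAF1D was the only gene of the 10 with a higher FP54 mean, at 40.0, 36.9 and 39.4 RPKM with DMSO and 36.3, 43.9 and 47.1 RPKM with FP54. Its groups overlapped, and its log2 fold change of 0.12 had a 95% confidence interval from -0.10 to 0.35. In all, 7 of the 10 genes had every FP54 value below every DMSO value, against 26.2% of all tested genes, and none had every FP54 value above, against 34.3%.

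The NB4 FP54 libraries differed from the DMSO libraries in genes that myeloid cells should not use. The mean RPKM of 415 olfactory receptor genes was 0.00169 to 0.00373 with DMSO and 0.0497 to 0.0548 with FP54, and it was 0.00387 to 0.00833 over all MOLM-13 libraries. The lowest value of any of the 10 genes in an NB4 library was 5.04 RPKM, that of POLR1C in FP54 replicate 3. Quantile normalization moved the median log2 fold change of all NB4 genes by -0.10, to -0.035, and 4 of the 10 genes were called lower under it as well.

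**Figure D3:**
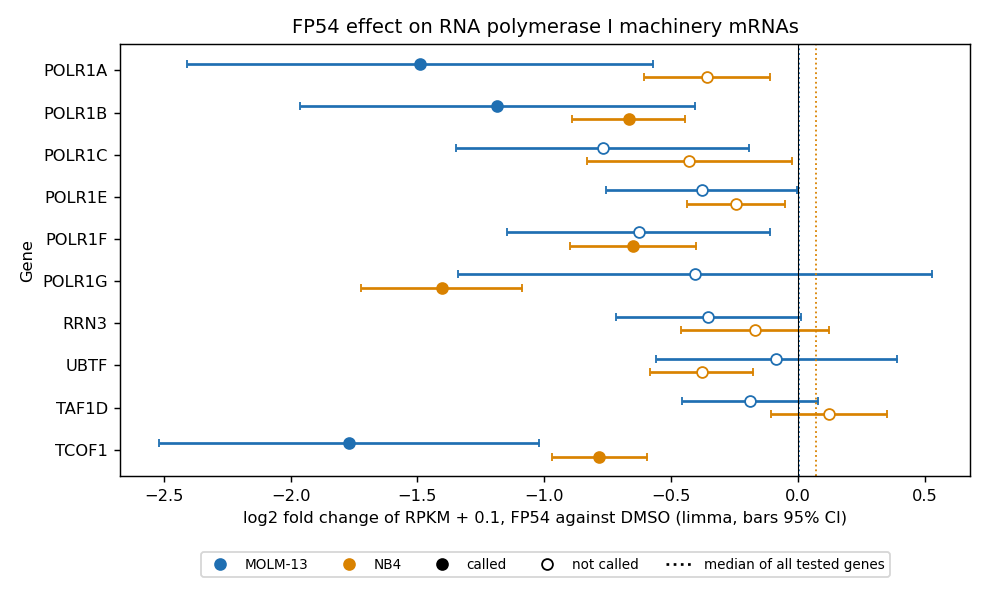
Fitted log2 fold change of RPKM + 0.1 with FP54 against DMSO for each of the 10 genes (limma, bars 95% confidence interval), with MOLM-13 in blue, NB4 in orange, called genes filled, and dotted lines at the median of all tested genes in each line. The 3 called MOLM-13 genes lie between -1.77 and -1.18 with wide bars, the 4 called NB4 genes between -1.40 and -0.65 with narrow ones, and TAF1D lies nearest 0 in NB4 cells.

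POLR1B and TCOF1 were called in both lines, POLR1A in MOLM-13 cells alone, and POLR1F and POLR1G in NB4 cells alone. Whether the effects differed was tested with an interaction term in limma over all 12 libraries. None of the 10 genes passed an adjusted p of 0.05, where 14.2% of the 8849 genes tested in both lines did, and 2 had an unadjusted p below 0.05, against 28.2%. These were POLR1A, whose log2 fold change was higher by 1.13 in NB4 than in MOLM-13 cells (SE 0.48, adjusted p = 0.136), and TCOF1, higher by 0.99 (SE 0.39, adjusted p = 0.112). Neither difference held after adjustment. For POLR1G the NB4 effect minus the MOLM-13 effect was -0.999, with a 95% confidence interval from -2.10 to 0.11 (adjusted p = 0.221), and for TAF1D it was 0.31 (-0.015 to 0.64, adjusted p = 0.195). The interval for POLR1F, whose effects were -0.63 and -0.65, ran from -0.62 to 0.58. Leaving out single MOLM-13 libraries, an alternative chosen after seeing the data, changed the count. Without MOLM-13 DMSO replicate 2, POLR1A and TCOF1 passed, with differences of 1.58 and 1.29. Without MOLM-13 FP54 replicate 2 only TCOF1 passed, at 1.24, and without MOLM-13 FP54 replicate 3 only POLR1A, at 1.43.

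Ratios of the RPKM of partners were followed within each library, as a description without a test. The size of a ratio depends on the exon lengths used, while its change with FP54 does not. The ratio of POLR1A to POLR1B, the catalytic chains, was 0.788, 0.659 and 0.742 in MOLM-13 DMSO libraries and 0.467, 0.656 and 0.592 with FP54. In NB4 cells it was 0.705, 0.659 and 0.630 with DMSO and 0.802, 0.878 and 0.793 with FP54. The ratio was thus lower with FP54 in MOLM-13 cells, where the groups only just separated, and higher in NB4 cells. The ratio of POLR1G to POLR1E, partners in the subcomplex particular to RNA polymerase I, went from 0.911, 1.27 and 0.796 with DMSO to 0.442, 0.410 and 0.442 with FP54 in NB4 cells. In MOLM-13 cells it overlapped, at 0.474, 0.230 and 0.653 with DMSO and 0.355, 0.620 and 0.306 with FP54. The ratio of TCOF1 to UBTF, whose proteins bind each other, was lower with FP54 in every library of both lines. It was 0.386 to 0.490 with DMSO and 0.0885 to 0.164 with FP54 in MOLM-13 cells, and 0.614 to 0.663 and 0.464 to 0.508 in NB4 cells.

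The rest of the machinery was followed as a list of 14 genes, comprising the remaining subunits (including those shared with the other polymerases), the other proteins of selectivity factor 1 and the termination factors. In MOLM-13 cells 1 of the 14 was called lower, against 9.04% of all tested genes, none higher, and the median log2 fold change was -0.12. The called gene was POLR2H, a subunit of all nuclear RNA polymerases, at -0.51 (adjusted p = 0.0432). In NB4 cells 13 were tested, CAVIN1 being under 1 RPKM, and 4 were called lower and none higher, with a median of -0.36. All 4 called genes encode subunits that the nuclear polymerases share, namely POLR2F (-1.14), POLR2L (-0.88), POLR2E (-0.63) and POLR2K (-0.57). By the adjusted p alone 7 of the 13 were lower and 1 higher. Every FP54 value was below every DMSO value for 8 and above for 2. Of all tested NB4 genes, 10.7% were called lower, 22% were lower by the adjusted p and 26.2% had every FP54 value below. POLR1D, the partner of POLR1C, had log2 fold changes of 0.032 in the MOLM-13 and 0.13 in the NB4 libraries, and POLR1H, a small subunit, -0.23 and -0.38, and neither was called.

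Subunits particular to the other polymerases were examined in the same way. Of 11 RNA polymerase III subunits, 3 were called lower in MOLM-13 cells (median -0.26), led by POLR3G at -1.34 and POLR3E at -1.28, and POLR3D, named here after its value was seen, was the other at -0.85. In NB4 cells 2 were called lower (median -0.20), POLR3K at -0.67 and POLR3G at -0.54. By the adjusted p alone 4 of the 11 were lower and 1 higher there. Of 7 RNA polymerase II subunits, limma called none in MOLM-13 cells, where the median was 0.034. An unadjusted p below 0.05 was reached by POLR2D, lower at -0.54, and by POLR2A, higher at 0.34, both named here after their values were seen. In the lower direction 17.4% of all genes tested in MOLM-13 cells reached it. In NB4 cells 1 was called lower, POLR2I at -0.84, and the median was -0.30. By the adjusted p alone 5 of these 7 were lower and 1 higher, where 22% of all tested genes were lower. Groups without overlap were also found for 5 in the lower and 1 in the higher direction. No subunit of either list was called higher in either line.

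Among 17 nucleolar regulators of ribosomal DNA transcription, 3 were called lower in MOLM-13 cells, against 9.04% of all tested genes, and none higher (median -0.28). DDX21, an RNA helicase that promotes ribosomal RNA transcription and processing, was at 28.4, 14.8 and 25.5 RPKM with DMSO and 3.12, 7.42 and 9.01 RPKM with FP54 (log2 fold change -1.88). MYBBP1A, a nucleolar MYB-binding protein, and NOLC1, a nucleolar chaperone and partner of treacle, had log2 fold changes of -1.86 and -1.53. In NB4 cells 5 were called lower and 1 higher (median -0.30), against 10.7% and 18.6% of all tested genes. By the adjusted p alone 9 of the 17 were lower and 2 higher there. MYC was at 133, 142 and 125 RPKM with DMSO and 75.8, 67.9 and 65.0 RPKM with FP54 (log2 fold change -0.94), and NOLC1 and DDX21 had log2 fold changes of -0.76 and -0.63. RRP8 (-0.60), SUV39H1 (-0.51) and the higher gene, RB1 (0.59), which encodes a repressor of ribosomal DNA transcription, are named here after their values were seen. MYC in MOLM-13 cells, at -1.52, was not called (adjusted p = 0.0567), with DMSO replicate 2 inside the FP54 range.

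**Figure D4:**
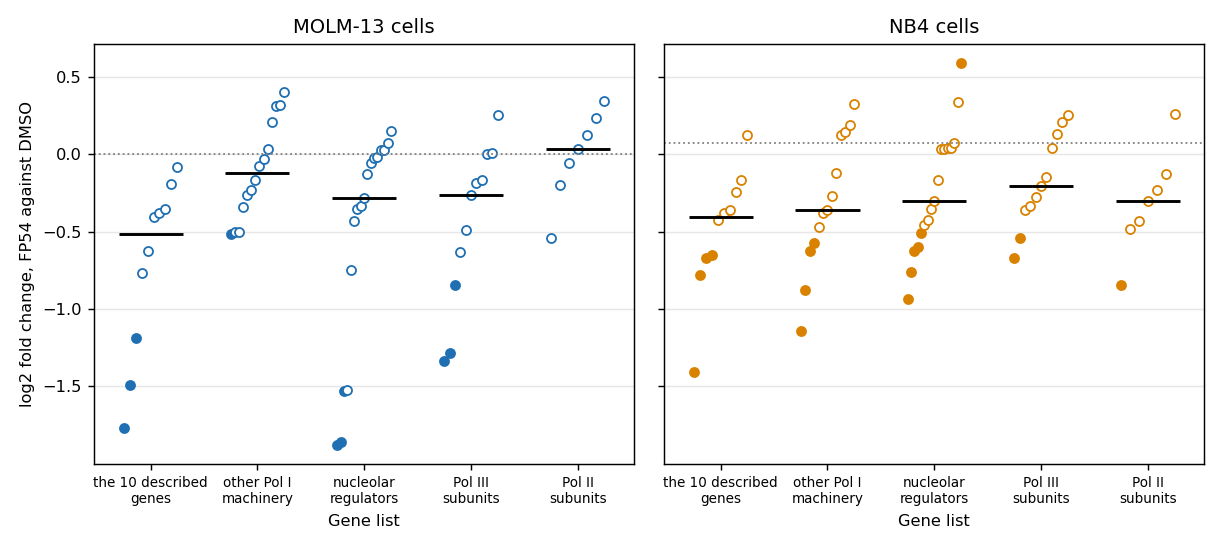
Fitted log2 fold change with FP54 against DMSO of every tested gene in 5 lists, in MOLM-13 cells (left) and NB4 cells (right), with called genes filled, a bar at each list's median and a dotted line at the median of all tested genes. The 10 described genes have medians of -0.52 and -0.40, and the other RNA polymerase I machinery genes -0.12 and -0.36.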

How the data were processed

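RNA-seq of 12 of the 22 samples in the labels was used, while the 10 samples of m6A-seq and polysome-seq are not analysed here. According to the methods, the authors trimmed reads with Cutadapt 4.8, removed duplicates with Clumpify, aligned to hg38 with STAR 2.7.11b, counted reads on protein-coding GENCODE V42 genes with featureCounts 2.0.3, and deposited RPKM. The versions are also in the submitters' processing notes. Removing duplicates can lower the values of abundant mRNAs. Columns give treatment and replicate, and the cell line comes from the name of each table.

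Genes with a mean of at least 1 RPKM over the 6 libraries of a line were fitted as log2(RPKM + 0.1) in limma 3.58.1 under R 4.3.3 (lmFit, then eBayes with a trend on intensity). Genes were called at p below 0.01 and an absolute log2 fold change of at least 0.5, the cutoff of the methods, with Benjamini-Hochberg adjusted p over all genes tested. The interaction used an adjusted p below 0.05. The unit of the files is RPKM, so no count test was the main test. Reads were recovered from RPKM and exon lengths of GENCODE release 44, and 98.2 to 98.9% of values up to 50 reads were within 0.02 of a whole number. They served for depth and for limma-voom. Tables were handled in Python 3.11.15 with pandas 2.3.3, numpy 2.4.6 and matplotlib 3.10.9. The fits were run on simulated data with a single size of change and independent noise. Smaller changes, genes of low level and shifts shared by the genes of a library were not covered.

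Named were the 10 genes, POLR1D, POLR1H, called genes of the remaining machinery, the 3 called regulators with the largest change in each line, and up to 2 called subunits of each other polymerase. The members and lists were chosen with earlier results of these data known. Tried as alternatives were a pseudocount of 1 or 0.01, dropping the filter or raising it to 5 RPKM, median-ratio scaling, quantile normalization, a replicate block, eBayes without a trend or robust, limma-voom, an adjusted p cutoff, and leaving out each library.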

Additional observations from a re-analysis of the deposited data

Results flagged for a closer look

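Of 48 list genes around the RNA polymerase I machinery tested in both lines, 5 (10.4%) had an FP54 effect that differed between the cell lines at an adjusted p below 0.05 in the limma interaction, a share below the 14.2% of all genes tested in both lines. The 10 machinery genes described were not part of these 48, and none of the 10 passed the same threshold. POLR2E, a subunit that the nuclear RNA polymerases share, had a log2 fold change of 0.32 in MOLM-13 and -0.63 in NB4 cells, a difference of -0.94 (adjusted p = 0.00852). RB1 had -0.34 and 0.59, a difference of 0.93 (adjusted p = 0.0338). POLR3D, an RNA polymerase III subunit, had -0.85 and 0.044, a difference of 0.89 (adjusted p = 0.0162). The RNA polymerase II subunits POLR2I and POLR2J differed by -0.79 (adjusted p = 0.0459) and -0.61 (adjusted p = 0.0350), each lower in NB4 cells. The causes were not tested.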

How the results depend on the processing

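The 10 genes' call counts in NB4 cells (4 lower, 0 higher) were 4 to 5 lower over the 6 fits that each left out a library and 4 under every other alternative run, with 0 higher throughout. In MOLM-13 cells the count of genes called lower, 3, was 0 with no filter on low values, the cause of which was not tested, and 1 with a filter at a mean of 5 RPKM, where POLR1A, POLR1B, POLR1C and RRN3 were not tested. It ranged from 1 to 7 when a library was left out, and no gene was called higher in any of these fits. The count of genes with a different effect between the lines, 0, ranged from 0 to 2 over the fits that left out a library. Median-ratio scaling and quantile normalization each gave 4 in MOLM-13 cells, with POLR1C added. The replicate block also gave 4 in each line and 0 for the difference between lines. The main fit took no replicate numbers as pairs because the methods name no pairing. Libraries with the same number also did not deviate together (correlations from -0.262 to -0.0577 in MOLM-13 and from -0.143 to 0.123 in NB4 cells). In MOLM-13 cells the deviations of libraries with different numbers were correlated at 0.593 (DMSO 1 and FP54 3), 0.494 (DMSO 2 and FP54 1) and 0.475 (DMSO 3 and FP54 2), which no label ties together.

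Of the genes' single values, UBTF in MOLM-13 cells (-0.085) changed sign, with a range from -0.32 to 0.080 over left-out libraries. The interaction differences near 0 changed sign too. That of POLR1F (-0.022) was 0.031 under quantile normalization and 0.029 with limma-voom, and ranged from -0.22 to 0.19 over left-out libraries. Those of POLR1C and POLR1E ranged from -0.029 to 0.69 and from -6.53e-05 to 0.29. The causes of these changes were not tested. In MOLM-13 cells 45 of 60 values with a library left out and 90 of 96 under other alternatives kept their direction and their side of the rule, and in NB4 cells 59 of 60 and 100 of 100 did. With 78 reads behind the lowest value and 5829730 in the shallowest library, depth limits MOLM-13 FP54 replicate 2 most.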
